A study of Mus musculus with 4 samples.

Results

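Alternative activation and scavenger markers were followed as a list of 10 genes, Mrc1, Retnla, Chil3, Mgl2, Clec10a, Folr2, Lyve1, Msr1, Ear2 and Il4ra, and all 10 were found by symbol among the 32285 genes of the count matrix. The question was whether these genes shared a pattern across the annotated cell types and tumours or parted between C1q-rich tumour macrophages (TAM_C1q), the small population named Macro and monocytes. The genes were listed by name, with no threshold on expression, but with earlier results of these data known.

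The samples were CD45+ cells sorted from subcutaneous YUMM1.7OVA tumours, a mouse melanoma line that expresses ovalbumin, grown in Rag2-/- mice, which make no T or B cells of their own. All mice received OT-1 CD8+ T cells, which recognise an ovalbumin peptide, on day 7, and tumours were taken on day 10, 72 h later. There were 4 groups with 1 sample each. NTT tumours came from cells naive to targeted therapy (line Y1.7_NTT_3A6), and RTT tumours from cells made resistant to it (line Y1.7_RTT_2B12) that were kept in the BRAF inhibitor dabrafenib in culture. RTT_ROSA26 carried a control guide against Rosa26, and RTT_PTGS12KO lacked Ptgs1 and Ptgs2, the cyclooxygenase genes of prostaglandin synthesis. The edits were made in the injected cancer cells and not in the sorted immune cells. The labels give 1 tumour per condition and the study's legends describe pooled tumours, and which holds here was not settled.

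Macrophages exposed to IL-4 or IL-13 enter a state called alternative activation, in which the receptor chain encoded by Il4ra signals through STAT6 and genes such as Retnla, Chil3, Mrc1 and Mgl2 are induced in mice. Other members are best known as surface receptors. Mrc1, the mannose receptor, and Msr1, the class A scavenger receptor, take up sugars and modified lipoproteins, Mgl2 and Clec10a are C-type lectins for galactose-type sugars, Folr2 is a folate receptor and Lyve1 a hyaluronan receptor of tissue-resident macrophages. Ear2 encodes a secreted ribonuclease of the eosinophil-associated family, Retnla the secreted protein RELMα and Chil3 the secreted chitinase-like protein Ym1.

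The 10 genes are all annotated as protein coding in GRCm38 (GENCODE). Mgl2 (chr11:70130329-70137550) and Clec10a (chr11:70156197-70170834) are neighbours on the plus strand of chromosome 11, 18.6 kb apart. The others lie apart from each other, Retnla at chr16:48842551-48844461 and Ear2 at chr14:44102654-44103534, Mrc1 at chr2:14229392-14332057, Chil3 at chr3:106147554-106167564, Msr1 at chr8:39581685-39642673, and Folr2 (chr7:101839988-101857194), Lyve1 (chr7:110850607-110863239) and Il4ra (chr7:125552120-125579474) far from one another on chromosome 7. Mgl2 and Clec10a, Ear2 and Ear1, Chil3 and Chil4, and Retnla and Retnlg are close copies, so reads may have been split or lost between them and their values are uncertain to that extent.

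RefSeq held promoters for 7 of the 10 genes in the GRCm38.p6 table, and none for Clec10a, Lyve1 and Msr1. The bases upstream of Retnla and Chil3 are shown because Retnla had most of its UMIs in Macro and Chil3 its highest level in Infl_Mono in every sample, as described further on. The capitals mark matches to TTCNNNNGAA and TTCNNNGAA, palindromic spacings known as STAT6-type and general STAT-type motifs, searched on both strands.

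Retnla, chr16:48842359-48842550, plus strand: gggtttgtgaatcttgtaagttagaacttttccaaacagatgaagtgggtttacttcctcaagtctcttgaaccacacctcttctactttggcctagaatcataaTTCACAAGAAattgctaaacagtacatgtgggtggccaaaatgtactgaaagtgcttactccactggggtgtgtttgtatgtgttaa
Chil3, chr3:106167565-106167814, minus strand: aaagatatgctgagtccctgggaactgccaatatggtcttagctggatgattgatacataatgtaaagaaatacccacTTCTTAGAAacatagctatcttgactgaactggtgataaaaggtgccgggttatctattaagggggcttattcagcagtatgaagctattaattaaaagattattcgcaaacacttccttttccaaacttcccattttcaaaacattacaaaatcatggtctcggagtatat

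The Retnla stretch stops at the GENCODE gene start, which leaves out the last 58 bases before the RefSeq start. Counted from the RefSeq start, the match began 145 bases before it in Retnla and 172 bases before it in Chil3. Of 32851 promoters of the same table, 5.85% held TTCNNNNGAA and 7.02% held TTCNNNGAA, and neither was in the windows of the other matched members. Such a match describes the letters only.

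The matrix held 33368 cells in 17 deposited cell types, with 6836 to 10296 cells, 69332486 to 146829369 UMIs (unique transcript molecules) and a median of 7292.5 to 13280 UMIs per cell in a sample. Within a droplet load 0 barcodes were shared between samples, and 75 of 33270 barcode sequences occurred in more than 1 sample, in different loads. Levels are given as CPM, the UMIs of a gene per 1e6 UMIs summed over the cells of a type in a sample, and are compared between cell types and tumours but not between genes. Monocytes (Monocyte_1, Infl_Mono and Monocyte_3) were 6619 cells of NTT and 4015 of RTT_PTGS12KO, but 522 of RTT and 144 of RTT_ROSA26. Where samples are not named beside a series of 4 values, the order is NTT, RTT, RTT_ROSA26, RTT_PTGS12KO. Macro numbered 21, 99, 130 and 96 cells and TAM_C1q 12, 3412, 2247 and 1556 cells, and a type with under 20 cells was not compared. With 1 sample per group there was no replicate check and no test. Brackets hold exact 95% intervals that cover counting error only and not the spread between mice. A difference was called where the ratio of CPM passed 2-fold and the higher sum reached 10 CPM, and the share of all genes called the same way is printed beside each count of members.

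The members did not share 1 pattern across these cells. In the order of samples NTT, RTT, RTT_ROSA26 and RTT_PTGS12KO, the type with the highest level was Macro for 7, 6, 6 and 4 of the 10 members, the first of these being 6 and the next 5 with TMM scaling, another way to set library sizes. Infl_Mono was highest for Chil3 in all 4 samples, and also for Msr1 in NTT, while TAM_Spp1 was highest for Msr1 in RTT (700 CPM) and RTT_ROSA26 (593 CPM). cDC2, a class of conventional dendritic cells, was highest for Mgl2 in all 4 samples. TAM_C1q was highest for Il4ra in RTT and RTT_ROSA26, and for Mrc1, Folr2, Msr1 and Il4ra in RTT_PTGS12KO. The intervals of the highest and the next type overlapped for Clec10a, Mgl2 and Msr1 in NTT, Il4ra in RTT, Mgl2 in RTT_ROSA26 and Folr2 and Msr1 in RTT_PTGS12KO. These orders are descriptions, because the types were named by the authors on these same cells and Retnla, Lyve1 and Ear2 are among the 10 leading genes of Macro, Folr2 among those of TAM_C1q and Chil3 among those of Infl_Mono. The share of all genes that were highest in each type was not computed, so how unusual these counts are cannot be read.

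**Figure D1:**
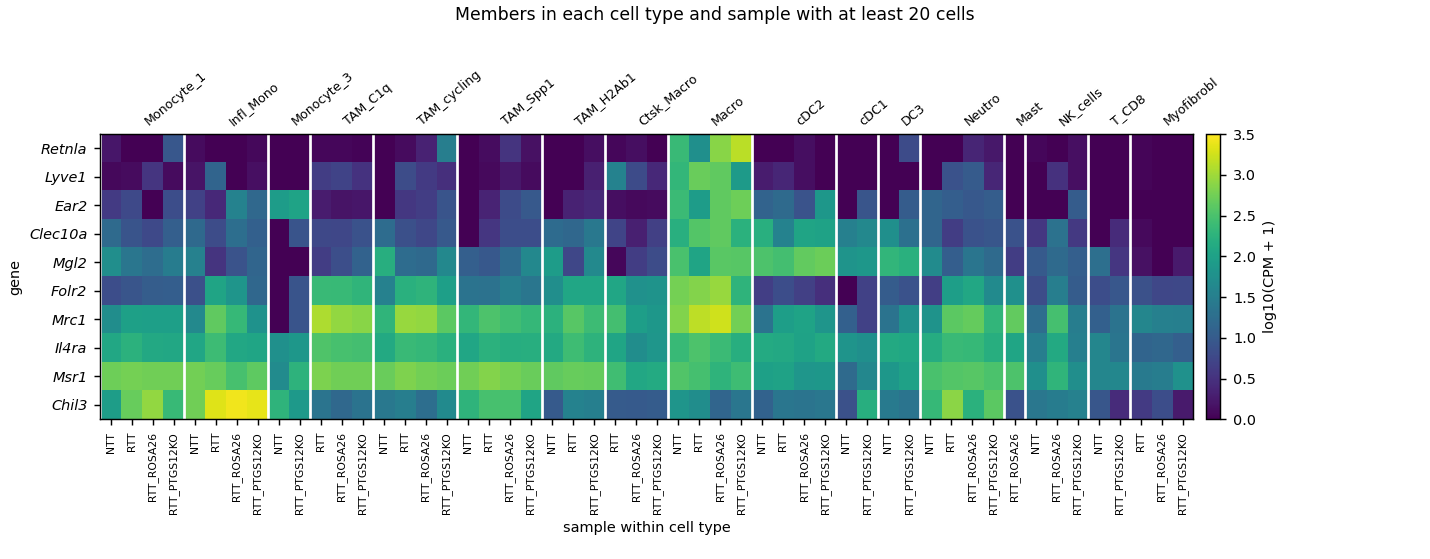
Level of each member (rows) as log10(CPM + 1), shown by colour, in each cell type and sample with at least 20 cells (columns, grouped by type). Retnla, Lyve1 and Ear2 are brightest in Macro, Mrc1, Folr2, Msr1 and Il4ra extend over the macrophage types, Chil3 is brightest in Infl_Mono, and Mgl2 in Macro and cDC2.

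Macro was checked against marker lists. All 8 genes of a macrophage marker list (C1qa, C1qb, C1qc, Apoe, Adgre1, Ms4a7, Mertk and Trem2) reached 10 CPM in Macro of every sample, but their summed level was 34825 CPM in RTT and 35212 in RTT_ROSA26 against 14807 in NTT and 8903 in RTT_PTGS12KO. A list of 8 tissue-resident macrophage genes (Cbr2, Gas6, F13a1, Pf4, Timd4, Cd163, Vsig4 and Maf) summed to 2566, 4942, 5342 and 912 CPM. The name therefore covers cells whose macrophage genes differed between tumours. Eosinophils, the cells for which the Ear family is named, were looked for with Siglecf, Epx, Prg2 and Ccr3, and these 4 genes summed to between 0 and 3.13 CPM in Macro.

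Among the secreted products, Retnla had the largest share of its UMIs in Macro. In Macro it stood at 1357 CPM [1294 to 1422] in RTT_PTGS12KO, 753 [703 to 806] in RTT_ROSA26, 231 [177 to 298] in NTT and 54.6 [41.2 to 70.8] in RTT. In TAM_C1q the highest level of an RTT-derived tumour was 0.145 CPM in RTT_ROSA26 and the lowest 0.0847 in RTT_PTGS12KO, with RTT at 0.141 CPM. The RTT tumour was thus the lowest and the knockout tumour the highest in Macro, while the C1q-rich macrophages of the same tumours held almost none. The share of Retnla UMIs found in Macro was 89.9% in RTT_ROSA26, 72.7% in RTT, 67.4% in NTT and 52.6% in the knockout, although it made up 0.254% to 1.90% of the cells of a sample.

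A few cells carried most of the Retnla signal. Any Retnla UMI was held by 32 of 96 Macro cells of RTT_PTGS12KO, 25 of 130 of RTT_ROSA26, 7 of 99 of RTT and 2 of 21 of NTT. In NTT 45 of the 60 UMIs lay in 1 cell, and without it the level was 57.9 CPM. In RTT_ROSA26 251 of 834 UMIs lay in 1 cell and the level without it was 526 CPM, and in RTT_PTGS12KO 374 of 1733 UMIs lay in 1 cell and the level without it was 1064 CPM. Retnla thus marked individual cells and not the whole of Macro. Outside Macro the largest source was TAM_cycling of RTT_PTGS12KO, where 803 of 1256 UMIs came from 1 of 1832 cells.

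Ear2 was also centred on Macro, at 527 CPM [488 to 568] in RTT_PTGS12KO, 446 [408 to 487] in RTT_ROSA26, 243 [187 to 311] in NTT and 84.8 [67.9 to 105] in RTT. In TAM_C1q it was between 0.521 and 0.828 CPM in the 3 RTT-derived tumours. As for Retnla, RTT was the lowest sample and the knockout the highest in Macro, and the intervals of RTT_ROSA26 and RTT_PTGS12KO did not overlap but nearly met. In RTT 44 of 87 UMIs came from 1 cell, and the level without it was 41.9 CPM. Non-classical monocytes (Monocyte_3) also held Ear2, at 85.5 CPM in NTT and 106 in RTT_PTGS12KO.

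Chil3, the third secreted product, had its highest levels in monocytes. In Infl_Mono it reached 2671 CPM [2539 to 2808] in RTT_ROSA26, 2339 [2297 to 2382] in RTT_PTGS12KO, 2115 [2036 to 2197] in RTT and 551 [538 to 565] in NTT. In Monocyte_1 it was at 861 CPM in RTT_ROSA26, 489 in RTT, 229 in RTT_PTGS12KO and 87.0 in NTT. NTT was the lowest sample in both monocyte types, and Infl_Mono stood above Monocyte_1 in all 4 samples, by log2 ratios of 2.66, 2.11, 1.63 and 3.35. In TAM_C1q Chil3 was between 14.05 and 21.4 CPM and in Macro between 12.6 and 65.6 CPM, whereas TAM_Spp1, the macrophages named for osteopontin, held 186, 299, 305 and 109 CPM and neutrophils 219, 772, 170 and 417 CPM. In TAM_Spp1 of NTT, 20 cells, 26 of the 36 UMIs came from 1 cell, and the level without it was 51.6 CPM. Monocytes held 94.1% of the Chil3 UMIs of NTT and 79.2% of RTT_PTGS12KO but 31.1% of RTT and 23.8% of RTT_ROSA26, where TAM_Spp1, with far more cells, held 48.2% and 52.3%.

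The C-type lectins Mgl2 and Clec10a were shared between Macro and dendritic cells. Mgl2 in Macro was at 395 CPM [359 to 434] in RTT_ROSA26, 383 [350 to 418] in RTT_PTGS12KO, 312 [248 to 388] in NTT and 108 [89.0 to 130] in RTT. In cDC2 it was at 328, 280, 454 and 523 CPM. RTT was the lowest sample in both types, and in NTT and RTT_ROSA26 the intervals of Macro and cDC2 overlapped. Clec10a in Macro was at 436 CPM [398 to 477] in RTT_ROSA26, 362 [327 to 401] in RTT, 168 [147 to 192] in RTT_PTGS12KO and 162 [117 to 219] in NTT, and in cDC2 at 162, 34.8, 109 and 101 CPM. The intervals of RTT and RTT_ROSA26 lay above those of NTT and RTT_PTGS12KO for Clec10a, which is not the order of Mgl2. TAM_C1q held between 3.31 and 11.4 CPM of Mgl2 and between 4.49 and 6.52 CPM of Clec10a.

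The receptors Mrc1 and Folr2 were found both in Macro and in the tumour macrophages. Mrc1 in Macro was at 1753 CPM [1676 to 1833] in RTT_ROSA26, 1422 [1350 to 1497] in RTT, 694 [597 to 804] in NTT and 560 [519 to 602] in RTT_PTGS12KO. In TAM_C1q it was at 743 CPM in RTT_PTGS12KO, 847 in RTT_ROSA26 and 1174 in RTT, and in TAM_cycling at 193, 918, 859 and 413 CPM. RTT and RTT_ROSA26 were above NTT and the knockout in Macro and in TAM_cycling. Folr2 in Macro followed the same split only in part, at 904 CPM [849 to 962] in RTT_ROSA26, 713 [662 to 767] in RTT, 590 [500 to 692] in NTT and 186 [163 to 212] in RTT_PTGS12KO, and NTT stood near RTT. In TAM_C1q Folr2 lay at 236 CPM in RTT, 226 in RTT_ROSA26 and 193 in the knockout. In the RTT-derived tumours TAM_C1q held between 39.1% and 65.7% of the Mrc1 UMIs and between 42.8% and 68.2% of the Folr2 UMIs.

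Lyve1 had its highest level in Macro, at 494 CPM [452 to 539] in RTT, 436 [398 to 477] in RTT_ROSA26, 204 [153 to 267] in NTT and 79.8 [65.1 to 96.9] in RTT_PTGS12KO. In TAM_C1q it was between 2.29 and 4.00 CPM. RTT and RTT_ROSA26 overlapped, NTT lay below them and RTT_PTGS12KO below all others. Macro held 76.8% of the Lyve1 UMIs in NTT, 58.8% in RTT_ROSA26, 49.7% in RTT and 37.8% in the knockout, where the more numerous TAM_cycling and TAM_C1q held 30.4% and 20%. In NTT 30 of the 53 UMIs came from 1 cell, and the level without it was 88.7 CPM. Ctsk_Macro, macrophages named for the osteoclast protease cathepsin K, were the next highest macrophage type in RTT, at 34.2 CPM.

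Msr1 and Il4ra were spread over monocytes and macrophages. Msr1 was between 534 and 582 CPM in Monocyte_1 of the 4 samples, between 496 and 700 CPM in TAM_Spp1, and between 547 and 644 CPM in TAM_C1q of the RTT-derived tumours, but only between 189 and 351 CPM in Macro. Il4ra, the receptor chain for IL-4 and IL-13, was between 287 and 343 CPM in TAM_C1q, between 155 and 336 CPM in Macro and between 125 and 179 CPM in Monocyte_1. Both were thus detected well beyond Macro, and neither marked it.

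**Figure D2:**
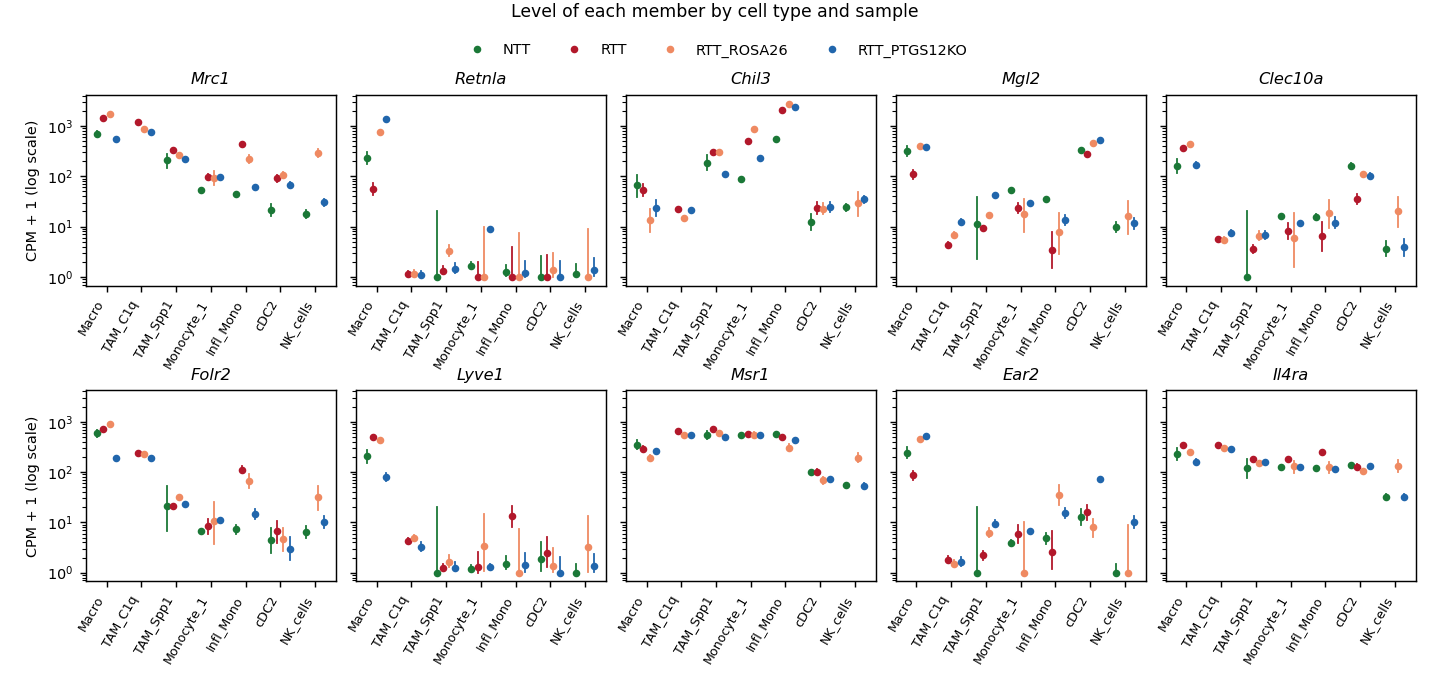
Level of each member as CPM + 1 (log axis) in Macro, TAM_C1q, TAM_Spp1, Monocyte_1, Infl_Mono, cDC2 and NK cells of each sample with at least 20 cells of the type (points, with exact 95% counting intervals as lines). Retnla, Lyve1 and Ear2 separate Macro from TAM_C1q by more than 10-fold, Chil3 peaks in Infl_Mono, and UMIs of Msr1 and Il4ra were counted in every type shown, NK cells included.

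Droplets also capture free RNA, so NK cells, which should lack these genes apart from Il4ra, a chain that lymphocytes also use, were taken to read a background. In NK cells of NTT (709 cells) and RTT_PTGS12KO (306 cells), Mrc1 stood at 16.9 and 29.4 CPM, Msr1 at 54.3 and 52.1, Chil3 at 23.1 and 33.7 and Folr2 at 5.45 and 9.28 CPM. In the 26 NK cells of RTT_ROSA26 the levels were higher, at 289 CPM for Mrc1, 194 for Msr1 and 30.4 for Folr2. Retnla and Lyve1 in NK cells did not pass 0.379 CPM in NTT and RTT_PTGS12KO. Chil3 in NK cells was at 28.3 CPM in RTT_ROSA26 and 33.7 in RTT_PTGS12KO, or 15.2 and 16.1 CPM without the top cell of each, so the Chil3 levels of TAM_C1q and Macro in these tumours were near that background. In RTT_ROSA26 Mrc1 and Folr2 in monocytes were near or below it, as was Msr1 in Macro (189 against 194 CPM), whereas the Macro levels of Retnla, Lyve1, Ear2, Mgl2, Clec10a and Folr2 were well above it. How much of each level came from free RNA or joined cells was not tested.

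Macro and TAM_C1q were compared within each RTT-derived tumour. In RTT 7 of the 10 members were higher in Macro and 1 was lower, against 8.35% of all genes higher and 5.44% lower. In RTT_ROSA26 the counts were 7 and 1 (6 higher with TMM scaling, since Mrc1 came to 0.87), against 12.2% and 5.86% of all genes, and in RTT_PTGS12KO 5 and 1, against 11.1% and 6.89%. In the same order the median log2 ratio of the members was 3.31, 4.03 and 2.41, beside 0.03, 0.10 and 0.06 over all genes. These ratios describe types drawn partly from these genes.

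The members fell into sets by that ratio. Retnla (log2 ratios of 8.59, 12.34 and 13.97 in RTT, RTT_ROSA26 and RTT_PTGS12KO), Ear2 (6.68, 9.74 and 9.70), Lyve1 (7.24, 6.77 and 5.13), Clec10a (6.28, 6.60 and 4.69) and Mgl2 (5.03, 6.06 and 5.06) were higher in Macro in all 3 tumours. Folr2 (1.59, 2.00 and -0.05) and Mrc1 (0.28, 1.05 and -0.41) leaned towards Macro in the tumours that keep the cyclooxygenase genes and were near equal or lower in the knockout. Msr1 was lower in Macro in all 3 tumours (-1.16, -1.54 and -1.08), and Il4ra ranged from -0.03 to -0.89. Chil3 in RTT was higher in Macro by 1.27 over the 3 droplet loads together, but the value was -0.57 in load 1 and -0.017 in load 2, and 30 of its 53 UMIs came from 1 cell, without which the ratio was 0.07.

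Monocytes and TAM_C1q parted on other members. Chil3 was higher in monocytes of the 3 RTT-derived tumours (RTT, RTT_ROSA26 and then the knockout), by log2 ratios of 5.41, 7.08 and 4.54. Mrc1 was lower by 2.65, 2.38 and 3.05 and Folr2 lower by 2.79, 2.43 and 4.21 on the log2 scale. Msr1 stood within 0.42 of equal in all 3 tumours, and Mgl2 was higher in monocytes by 2.39, 0.89 and 1.21. In RTT_ROSA26 the monocyte levels of Mgl2 (11 UMIs) and Clec10a (12 UMIs) lay below those of NK cells. Of the members that reached the minimum, 2 of 6 were higher and 2 lower in RTT, against 6.08% and 7.25% of all genes, 3 and 3 of 8 in RTT_ROSA26 (4 higher with TMM scaling, which put Mgl2 at 1.01), against 8.97% and 13.2%, and 2 and 3 of 7 in RTT_PTGS12KO, against 6.34% and 5.84%.

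Within Macro the members were not all found in the same cells. To compare cells of unlike depth, each cell was thinned to 4000 UMIs and shallower cells were left out, which left 96 of 96 Macro cells of RTT_PTGS12KO, 119 of 130 of RTT_ROSA26, 94 of 99 of RTT and 20 of 21 of NTT. Folr2 was detected in 55% of NTT Macro cells, 69.1% of RTT, 70.6% of RTT_ROSA26 and 27.1% of RTT_PTGS12KO cells, and Ear2 in 20%, 5.32%, 19.3% and 41.7%. The share with Folr2 was thus lowest and the share with Ear2 highest in the knockout tumour. In thinned NK cells Folr2 was detected in 2.28% of 614 cells in NTT, 4.35% of 23 in RTT_ROSA26 and 2.41% of 291 in RTT_PTGS12KO, and Ear2 in 0 of 614, which at a floor of 3 counts allows a share of up to 0.489%, in 0 of 23 and in 1.03% of 291. The median depth before thinning was 13177.5, 9657, 8744 and 12731 UMIs in Macro from NTT to RTT_PTGS12KO, and 8900.5, 12633 and 16051 in the NK cells of NTT, RTT_ROSA26 and RTT_PTGS12KO.

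Folr2 and Ear2 were seldom in the same Macro cell. In RTT_ROSA26 82 cells held Folr2 alone, 21 Ear2 alone, 2 both and 14 neither. In RTT_PTGS12KO 26 held Folr2 alone, 40 Ear2 alone, 0 both and 30 neither. Ear2 was therefore present in 2.38% [0.29 to 8.34] of Folr2-positive cells and 60% [42.1 to 76.1] of Folr2-negative cells of RTT_ROSA26, and in 0 of 26 against 57.1% [44.7 to 68.9] in RTT_PTGS12KO. In RTT 63 cells held Folr2 alone, 3 Ear2 alone and 2 both, with Ear2 in 3.08% of Folr2-positive and 10.3% of Folr2-negative cells and overlapping intervals, and in NTT the counts were 11, 4 and 0. Without thinning, cells with both numbered 1, 3, 3 and 2, beside 11, 72, 90 and 31 with Folr2 alone and 7, 8, 21 and 48 with Ear2 alone. Cells with neither gene numbered 5 of 20 in NTT and 26 of 94 in RTT, more than those with Ear2 alone, and in RTT_PTGS12KO they outnumbered those with Folr2 alone. The counts of cells with Folr2 and with Ear2 thus differed between tumours, and a part of Macro held neither. Joined cells and missed detection were not tested as parts of these counts.

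**Figure D3:**
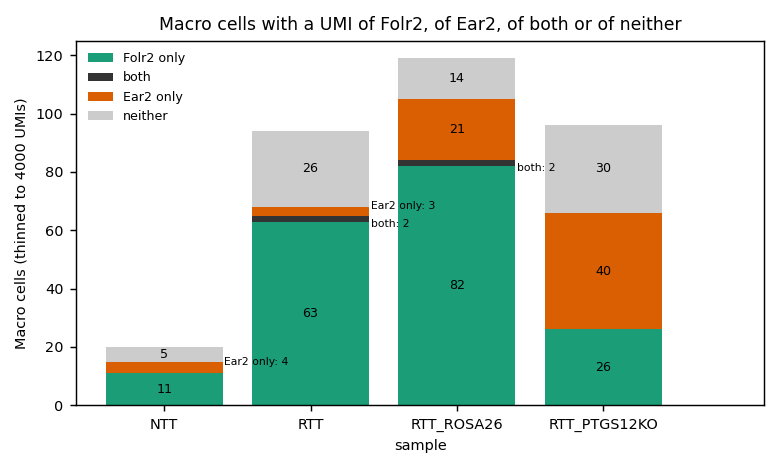
Number of Macro cells, thinned to 4000 UMIs, with a UMI of Folr2 alone, Ear2 alone, both or neither in each sample (stacked bars). Cells with both number 0 to 2 in any sample, and Ear2-only cells (40) outnumber Folr2-only cells (26) only in RTT_PTGS12KO.

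Some of the other members were more frequent beside one of the pair. Lyve1 went with Folr2, in 51 of 84 Folr2-positive and 0 of 35 Folr2-negative Macro cells of RTT_ROSA26, in 39 of 65 against 2 of 29 in RTT and in 8 of 26 against 0 of 70 in RTT_PTGS12KO. Clec10a also went with Folr2, in 72.6% against 22.9% of cells of RTT_ROSA26 and 65.4% against 21.4% of RTT_PTGS12KO, as did Il4ra, in 63.1% against 31.4% and 53.8% against 21.4%. In RTT the intervals of Clec10a and of Il4ra overlapped. In RTT_ROSA26 and RTT_PTGS12KO, Lyve1, Clec10a and Il4ra were thus each more frequent in Macro cells with Folr2.

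Retnla and Mgl2 leaned to the Ear2 side. Retnla was found in 10 of 23 Ear2-positive and 11 of 96 Ear2-negative cells of RTT_ROSA26, and in 19 of 40 against 10 of 56 in RTT_PTGS12KO. It was not confined to them, since 9 of 84 Folr2-positive cells of RTT_ROSA26 held it. Mgl2 was found in 70% of Ear2-positive against 28.6% of Ear2-negative cells of RTT_PTGS12KO, and in 65.2% against 35.4% in RTT_ROSA26, where the intervals overlapped. Msr1 was less frequent in Ear2-positive cells, at 17.4% against 59.4% in RTT_ROSA26 and 17.5% against 71.4% in RTT_PTGS12KO. In thinned NK cells of these tumours Msr1 was in 26.1% of 23 and 11.7% of 291 cells, so its share in the Ear2-positive cells was near that background. Mrc1 was in 95.7% against 90.6% and 67.5% against 71.4%, beside 34.8% and 6.19% of those NK cells, and Chil3 was in too few cells to be placed. Counted at 2 or more UMIs in RTT, Mrc1 was in 96.9% of Macro cells with Lyve1 and 66.1% without, with separate intervals. With and without Folr2 it was in 87.0% and 62.5%, with overlapping intervals.

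Each member with at least 10 Macro cells that held it and 10 that did not was set against the other 9, so that most pairs were read in both directions. The shares with and without it had separate intervals, higher with it, for 16 of 81 ordered pairs in RTT_ROSA26, 11 of 72 in RTT_PTGS12KO and 6 of 54 in RTT. They were lower for 10, 6 and 0 of these pairs and overlapped for 55, 55 and 48. The same counts over pairs of all genes were not made, so how unusual these are cannot be read.

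Likeness across groups was described by Pearson's r of log2(CPM + 1) over the 52 combinations of cell type and sample with at least 20 cells, which share libraries, free RNA and cell type names. Over the 45 pairs of members r ran from -0.05 to 0.88 with a median of 0.41, and 2 pairs were below 0. The closest pairs were Mrc1 and Folr2 (0.88), Mgl2 and Clec10a (0.82), Msr1 and Il4ra (0.77), Retnla and Lyve1 (0.76), Lyve1 and Folr2 (0.74) and Retnla and Ear2 (0.67). Chil3 stood apart, with r of 0.51 to Msr1, 0.42 to Il4ra and 0.29 to Ear2 and between -0.05 and 0.08 to the other 6 members. Folr2 and Mgl2 (0.04) and Mrc1 and Ear2 (0.10) were also unlike, although all 4 are used as alternative activation or resident macrophage markers.

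Restricted to monocyte and macrophage groups, the median was 0.40, the lowest r was -0.50 and 11 of 45 pairs were below 0. The median and the highest r (0.89) thus hardly moved, while more pairs were below 0.

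**Figure D4:**
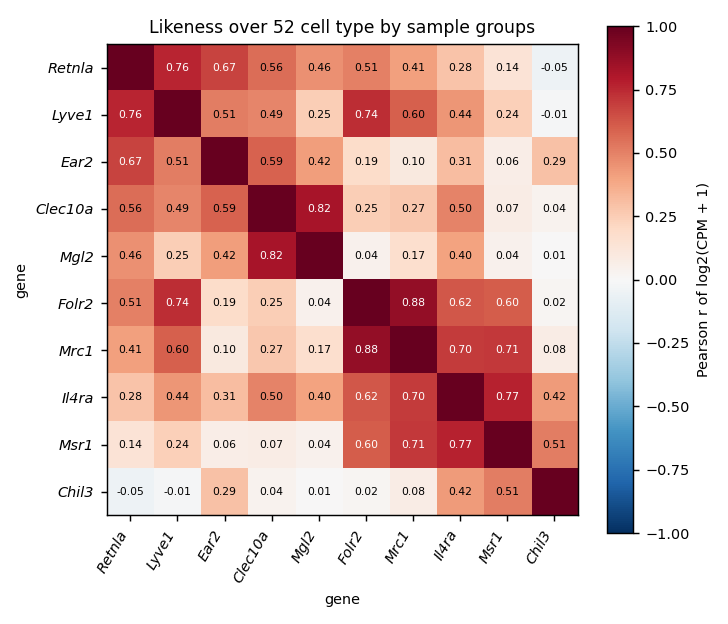
Pearson's r of log2(CPM + 1) between members over 52 groups of cell type and sample, as a colour matrix. The highest values are those of Mrc1 with Folr2 (0.88) and Mgl2 with Clec10a (0.82), and Chil3 reaches no more than 0.51 with any other member.

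Among 5620 other genes that reached 50 CPM in at least 1 group, the most alike differed by member. Folr2 was most like Cbr2 (r = 0.93), a carbonyl reductase, Gas6 (0.92), a bridging ligand for dying cells, and Selenop (0.92), a selenium carrier, and Mrc1 was most like Selenop (0.92), Rab3il1 (0.92) and Nxpe5 (0.91). Lyve1 was most like Ednrb (0.90), an endothelin receptor, Calml4 (0.86) and the complement receptor Vsig4 (0.84). Retnla was most like lysozyme Lyz1 (0.82), Gfra2 (0.82) and complement C6 (0.81), and Ear2 most like Gm15987 (0.79), Krt80 (0.76) and Slc2a6 (0.72). Chil3 was most like Hp (0.86), haptoglobin, the lectin Clec4e (0.82) and Rhov (0.81). Mgl2 was most like the class II chaperone gene H2-DMb2 (0.82), Dck (0.77) and Klrb1b (0.76), and Clec10a most like Prcp (0.78), Cd209a (0.77) and Cd209d (0.75). Genes whose pattern was close to that of Msr1 included Fcgr3 (0.92) and C3ar1 (0.92), and Il4ra was most like Tcn2 (0.93), Kctd12 (0.91) and Cyth1 (0.91).

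The comparison of NTT with RTT asks how sensitive and resistant tumours differ. Over all CD45+ cells, Mrc1 was at 56.6 CPM in NTT and 758 in RTT, a log2 ratio of -3.74 [-3.79 to -3.70], and Folr2 at 10.6 and 147 CPM, a log2 ratio of -3.80 [-3.90 to -3.69]. Mgl2 went the other way, at 58.0 and 12.7 CPM (2.19 [2.10 to 2.27]), with Clec10a at 19.5 and 8.18 CPM (1.25 [1.13 to 1.37]). Il4ra was lower in NTT (-1.10), and Chil3 (0.31) and Msr1 (-0.34) stayed within 2-fold. Of 7 members that reached the minimum, 2 were higher and 3 lower in NTT, against 8.14% and 8.26% of all genes. With TMM scaling, which shifted these ratios by 0.15, Il4ra came to -0.95 and the 5 became 4. In a sum over all cells, fewer cells of a type and less RNA per cell cannot be told apart, and macrophages and monocytes traded places between these tumours.

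Within Macro, 3 of 10 members were higher in NTT (Retnla, log2 ratio 2.08 [1.54 to 2.64], Mgl2, 1.53 [1.10 to 1.96], and Ear2, 1.52 [1.03 to 2.00]) and 3 were lower (Lyve1, -1.27 [-1.71 to -0.86], Clec10a, -1.16 [-1.66 to -0.70], and Mrc1, -1.03 [-1.27 to -0.81]), against 10.2% and 11.1% of all genes. The other 4 stayed within 2-fold. NTT had only 21 Macro cells. The macrophage and tissue-resident marker lists given before were also lower in Macro of NTT than of RTT, and their part in these ratios was not tested. Without the top cell of each gene the Retnla ratio was 0.68, under 2-fold, while that of Lyve1 was -2.32 and that of Chil3 went from 0.34 to -2.54 (3.86 against 22.4 CPM), since 16 of its 17 UMIs in NTT lay in 1 cell. Ear2 was higher by 2.08 in that setting but came to -0.34 where each cell was reassigned to the type whose mean profile, built without the members, it matched best.

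Within monocytes, Chil3 (194 against 911 CPM, log2 ratio -2.23 [-2.29 to -2.18]), Mrc1 (49.7 against 187 CPM, -1.91 [-2.02 to -1.80]) and Folr2 (5.84 against 34.3 CPM, -2.55 [-2.83 to -2.27]) were lower in NTT, and Mgl2 (47.7 against 17.3 CPM, 1.46 [1.15 to 1.79]) and Clec10a (15.2 against 6.73 CPM, 1.18 [0.67 to 1.72]) higher. That is 2 higher and 3 lower of 7, against 2.02% and 1.93% of all genes. Macrophage genes moved with Mrc1 and Folr2 there. Of the 16 tissue-resident macrophage genes listed further on, 8 reached the minimum in monocytes and 7 were lower in NTT, with a median log2 ratio of -1.95 beside 0.035 for all genes. RTT had only 13 NK cells, too few to compare, which held 512 CPM of Mrc1 and 92.6 CPM of Folr2. The part of macrophage RNA or of free RNA in these differences was not tested. With reassigned cells the Folr2 ratio was 0.16. Msr1 was alike in the monocytes of both tumours, at 542 and 558 CPM. Monocyte_1 made up 384 of the 522 monocytes of RTT. Within it Mrc1 was at 51.6 CPM in NTT against 97.5 in RTT, under 2-fold. Folr2 was at 5.73 against 7.44 CPM there, under the minimum, and Chil3 at 87.0 against 489 CPM. Within Infl_Mono alone 2 of 8 members were higher and 5 lower, against 3.81% and 5.19% of all genes, among them Folr2 (-4.15), Mgl2 (3.84) and Lyve1 (-4.63, with 15 of the 16 UMIs of RTT in 1 cell). In Infl_Mono the 8 genes of the macrophage marker list summed to 4799 CPM in NTT and 24987 in RTT, and 8 of the 9 tissue-resident genes that reached the minimum were lower, with a median of -2.83.

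The comparison of RTT_PTGS12KO with RTT_ROSA26 asks what removal of both cyclooxygenase genes from the cancer cells changes. Over all CD45+ cells Mrc1 was at 305 CPM in the knockout and 673 in the control (log2 ratio -1.14 [-1.16 to -1.12]) and Folr2 at 71.6 and 166 CPM (-1.21 [-1.24 to -1.18]). Chil3 was at 173 and 72.6 CPM (1.25 [1.21 to 1.29]), and Retnla at 22.4 and 8.42 CPM (1.41 [1.31 to 1.52]). That is 2 higher and 2 lower of 9 members, against 4.2% and 2.44% of all genes. With TMM scaling Mrc1 came to -0.97, under 2-fold, and the 4 became 3. The Retnla difference rested on few cells, since 19 cells held 90% of the 3296 UMIs of the knockout, and its sign turned to -0.27 when the CPM of each cell was averaged and to -0.21 when cells were thinned. Mgl2 (0.79), Ear2 (0.70), Clec10a (0.11), Msr1 (-0.07) and Il4ra (-0.39) stayed within 2-fold.

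In Macro 4 of 10 members were lower in the knockout and 0 higher, against 11.7% of all genes lower and 6.8% higher. These were Lyve1 (79.8 against 436 CPM, -2.45 [-2.77 to -2.14]), Folr2 (186 against 904 CPM, -2.28 [-2.49 to -2.07]), Mrc1 (560 against 1753 CPM, -1.65 [-1.77 to -1.52]) and Clec10a (168 against 436 CPM, -1.37 [-1.61 to -1.14]). Retnla was 0.85 [0.73 to 0.97] above the control on the log2 scale, Ear2 0.24 [0.07 to 0.41] above, and Mgl2 at -0.05 [-0.24 to 0.14]. Without the top cell of each gene the Retnla ratio was 1.02, just past 2-fold. Il4ra, which was more frequent in cells with Folr2, was at 155 against 244 CPM, within 2-fold (-0.65 [-0.93 to -0.38]). Lyve1, Folr2 and Clec10a, more often found in the same cells, were thus lower in the knockout's Macro, while Retnla, Ear2 and Mgl2 were not. Mrc1 was lower too, and its share of cells with any UMI was alike with and without Ear2. Marker lists moved with these members in Macro, the macrophage list at 8903 CPM in the knockout against 35212 in the control, cDC1 at 1178 against 389 and classical monocytes at 2221 against 1223, and their part was not tested. The proportion of Folr2-positive and Ear2-positive cells in Macro differed between these tumours in the same direction, and a change of proportion and a change within cells were not separated.

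In TAM_C1q of the same tumours 0 of 6 members passed 2-fold, a share near the 2.34% of all genes that did. Mrc1 was at -0.19, Folr2 at -0.23 and Chil3 at 0.56. Mgl2 was at 0.95 [0.69 to 1.22], an interval that lies above 0 and reaches past 2-fold, and at 1.02 with TMM scaling and 1.50 in thinned cells. In TAM_cycling 3 of 7 were higher and 2 lower, against 3.15% and 1.94% of all genes, Chil3 (1.40), Mgl2 (1.47) and Retnla (4.71, mostly 1 cell) higher and Mrc1 (-1.06) and Folr2 (-1.01) lower. In TAM_Spp1 Mgl2 was higher (1.40) and Chil3 lower (-1.48), against 2.95% of all genes. Mgl2 was therefore higher in the knockout in 2 macrophage types and just under 2-fold in another, but not in Macro. In cDC2 Ear2 was higher, at 70.6 against 6.93 CPM (3.35 [2.68 to 4.11]), against 9.16% of all genes called.

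In monocytes of the knockout Chil3 was at 482 CPM against 1898 in the control (-1.98 [-2.04 to -1.91]), although it was higher over all cells. The knockout held 4015 monocytes and the control 144. Folr2 (-2.01 [-2.47 to -1.52]) and Ear2 (-2.13 [-2.67 to -1.55]) were also lower and Mgl2 (1.27 [0.43 to 2.28]) higher, so that 1 of 8 members was higher and 3 lower, against 2.62% and 2.82% of all genes. Tissue-resident macrophage genes moved with Folr2 there too, lower for 6 of the 9 that reached the minimum, with a median of -1.98, and their part in its ratio was not tested. The Folr2 ratio was 0.37 with reassigned cells. In the control 86 of the 144 monocytes were Infl_Mono, the type with the most Chil3, against 635 of 4015 in the knockout. Within Infl_Mono the Chil3 ratio was -0.19 [-0.27 to -0.11] and within Monocyte_1 -1.91 [-2.06 to -1.75]. Folr2 and Ear2 were lower past 2-fold within Infl_Mono, at -2.24 [-2.83 to -1.63] and -1.30 [-2.03 to -0.50]. In Monocyte_1 both were under the minimum, Folr2 at 9.94 CPM in the knockout against 9.70 and Ear2 at 5.70 against 0. The 4 Monocyte_3 cells of the control, too few to compare, also held Ear2. The part of the makeup in these summed ratios was not tested.

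**Figure D5:**
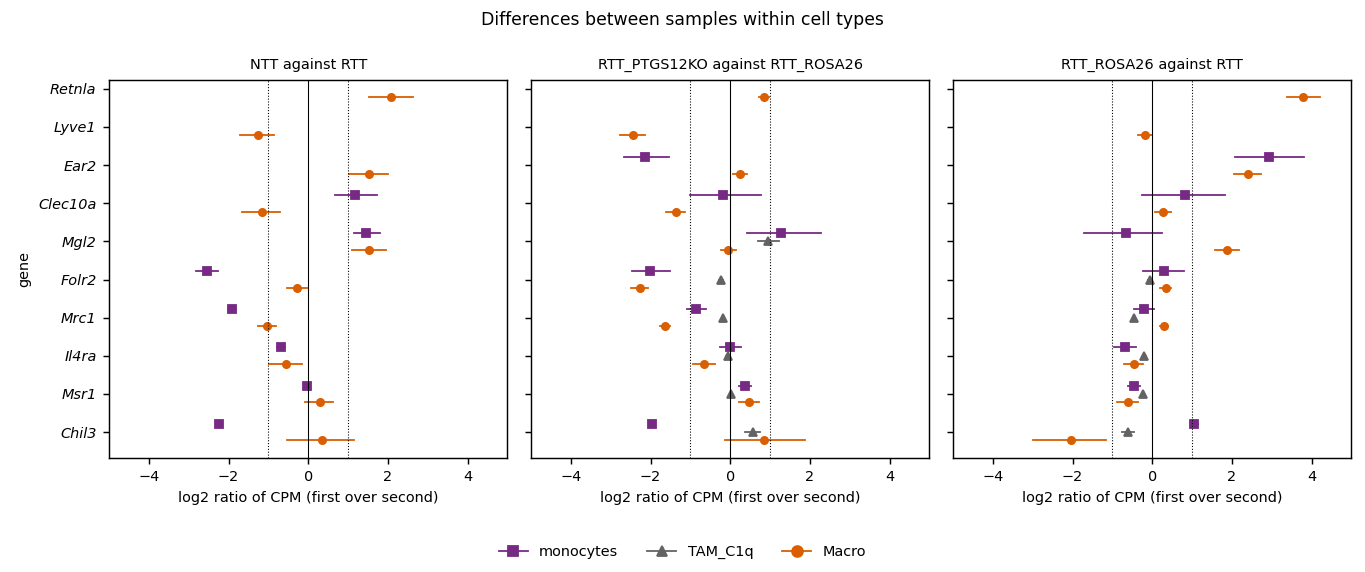
Log2 ratio of CPM (first sample over second) for the members that reached 10 CPM in monocytes, TAM_C1q and Macro, with exact 95% counting intervals as lines and dotted lines at 2-fold, for NTT against RTT, RTT_PTGS12KO against RTT_ROSA26 and RTT_ROSA26 against RTT. In Macro, Mrc1, Clec10a and Lyve1 lie below -1 in both of the first contrasts, and the TAM_C1q points lie within 2-fold.

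RTT_ROSA26 against RTT shows how far tumours that both keep the cyclooxygenase genes differed. It shares the RTT sample with the first contrast and RTT_ROSA26 with the second, so these contrasts are not independent. Over all cells 1 of 7 members passed 2-fold, Mgl2 at 1.03 [0.93 to 1.12], against 2.07% of all genes, and in TAM_C1q 0 of 5 did, against 1.04%. In Macro, by contrast, Retnla (3.79 [3.4 to 4.2]), Ear2 (2.40 [2.06 to 2.74]) and Mgl2 (1.87 [1.57 to 2.18]) were higher and Chil3 (-2.03 [-3.00 to -1.16]) lower in RTT_ROSA26, 4 of 10 against 8.47% of all genes. Retnla, Ear2 and Mgl2 in Macro thus differed more between these control tumours than between the knockout and its control. Lyve1 (-0.18), Folr2 (0.34), Mrc1 (0.30) and Clec10a (0.27) did not pass 2-fold. In monocytes Chil3 (1.06 [0.98 to 1.14]) and Ear2 (2.92 [2.07 to 3.81]) were higher, 2 of 8 against 5.62%. Of the 31 Ear2 UMIs in monocytes of RTT_ROSA26, 11 came from 4 Monocyte_3 cells. Chil3 was at 2671 against 2115 CPM in Infl_Mono and 861 against 489 in Monocyte_1, under 2-fold in each. Infl_Mono made up 86 of 144 monocytes in RTT_ROSA26 and 138 of 522 in RTT. Within Infl_Mono Mrc1 (217 against 444 CPM), Il4ra (123 against 250) and Lyve1 (0 against 12.6, 15 of 16 UMIs in 1 cell) were lower past 2-fold. Ear2 (34.8 against 1.57) and Clec10a (17.4 against 5.50) were higher there. In Ctsk_Macro Mrc1, Folr2, Lyve1, Msr1 and Il4ra were lower past 2-fold.

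The 3 droplet loads gave technical repeats of the same pooled cells. Folr2 in Macro ranged from 155 to 243 CPM in RTT_PTGS12KO and from 805 to 968 in RTT_ROSA26, which did not overlap. Retnla ranged from 584 to 1788 CPM and from 536 to 885 CPM, which did. In the 21 Macro cells of NTT Folr2 ranged from 176 to 1090 CPM and Retnla from 0 to 704 CPM between loads.

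Other genes of the same programmes were counted from lists. The tissue-resident macrophage genes, 16 in all, were lower in the knockout's Macro for 15 of 16, against 11.7% of all genes, with a median log2 ratio of -2.95 beside -0.10 for all genes. Cd209f, a lectin, was at 26.6 against 364 CPM (-3.77), Gas6 at 36.0 against 417 CPM (-3.53) and Cbr2 at 86.9 against 722 CPM (-3.06), and the exception was Timd4, a receptor for dying cells, with a log2 ratio of -0.01. In NTT against RTT 8 of 16 were lower and 3 higher in Macro, against 11.1% and 10.2% of all genes, and 11 of the 11 that reached the minimum were lower over all cells, against 8.26%. In RTT_ROSA26 against RTT 5 were higher and 0 lower in Macro, against 8.47% of all genes in either direction. The direction of these genes in the knockout was that of Folr2 and Lyve1.

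Of 12 genes of IL-4 and IL-13 signalling, 10 reached the minimum in Macro of the knockout contrast, and 2 were higher and 0 lower, against 6.8% and 11.7% of all genes. These were the feedback inhibitors Socs1 (82.2 against 9.03 CPM, 3.19 [2.25 to 4.29]) and Cish (47.8 against 8.13 CPM, 2.55 [1.54 to 3.75]), both also induced by other cytokines. Stat6 was at 51.7 and 54.2 CPM, and Il4 and Il13 did not pass 1.81 CPM in any of the sums compared. In NTT against RTT over all cells 3 of 8 were higher and 0 lower, against 8.14% and 8.26% of all genes, Il2rg (2.23), Socs1 (2.70) and Cish (2.32). NK cells numbered 709 in NTT and 13 in RTT, and T_CD8 cells 93 and 1. The part of this makeup in the sums over all cells was not tested.

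Of 10 other alternative activation genes, 8 reached the minimum in that Macro contrast, with 4 higher and 2 lower, against 6.8% and 11.7% of all genes. Higher were the chemokines Ccl17 (176 CPM against 0, at least 65.0-fold higher against a floor of 3 UMIs in the sum) and Ccl22 (4.19), the checkpoint ligand Pdcd1lg2 (72.8 against 9.03 CPM, 3.01) and the crosslinking enzyme Tgm2 (1.17). Lower were the chemokine Ccl24 (20.4 against 367 CPM, -4.17) and the lectin Cd209a (-2.48). Ccl22 and Ccl17 are also among the 10 leading genes of the dendritic type DC3, and Ccl17 among those of cDC2. Beside the cDC1 and classical monocyte lists given before, those of cDC2 (184 against 141 CPM) and CCR7+ dendritic cells (47.0 against 30.7 CPM) were higher in the knockout's Macro, and their part in these differences was not tested.

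Of 14 other scavenger receptors, 11 reached the minimum there, with 1 higher and 4 lower against the same shares, Cd163 (-2.44), Stab1 (-2.60), Marco (-1.21) and Scarb2 (-1.18) lower and Cd36 (1.68) higher. Of 9 close relatives of the members, only Retnlg reached the minimum in these contrasts, and it was lower in the knockout's Macro (-1.36).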

How the data were processed

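UMI counts for every gene in every cell were deposited as 1 matrix, with the sample and cell type of each cell. Samples were tagged with multiplexing oligos, pooled and loaded 3 times with a kit that counts 3' ends. Per the study's methods and the labels, counts came from Cell Ranger with the mm10 reference and types from Seurat 4.3.0. The 4 samples formed 4 groups by their titles, and 0 other columns of per-sample values were present. Counts were summed per sample and type, divided by the total (69332486 to 146829369 UMIs per sample) and compared as ratios with exact conditional intervals, with a sum of 0 set to 3 UMIs. No sum was tested between samples. The NTT against RTT, knockout and control contrasts share samples. The oligos remove doublets that mix samples, and no doublet caller was used. Python 3.11.15 with numpy 2.4.6, scipy 1.17.1, pandas 2.3.3 and matplotlib 3.10.9, and R 4.3.3 with edgeR 4.0.16 (TMM factors as an alternative), were used, and the steps were tested on simulated data. The members and lists were chosen with earlier results of these data known. The genes named were the 10 members, the genes of 5 fixed lists and the 3 genes most like each member. Alternatives were TMM, CPM + 1 ratios, other minimum levels, a filter that kept cells above 1500 genes and below 10% mitochondrial UMIs, removal of the 5% of cells with most UMIs, means over cells, thinning, reassigned cells and each load alone. Levels without the top cell were added after seeing the data.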

Additional observations from a re-analysis of the deposited data

Results flagged for a closer look

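Clec10a, NTT against RTT, and Chil3, RTT_ROSA26 against RTT, had log2 ratios of opposite sign in monocytes and in Macro, each past 2-fold with counting intervals that did not reach 0. For Clec10a the ratio was 1.18 in monocytes (15.2 against 6.73 CPM) and -1.16 in Macro (162 against 362 CPM). For Chil3 it was 1.06 in monocytes (1898 against 911 CPM) and -2.03 in Macro (12.6 against 51.6 CPM). With 1 sample per group the difference between these types was not tested. In the Macro cells of RTT, 30 of 53 Chil3 UMIs lay in 1 cell, and without the top cell of each sample the Chil3 ratio was -1.17. Chil3 did not pass 2-fold within Infl_Mono (2671 against 2115 CPM) or within Monocyte_1 (861 against 489 CPM). Infl_Mono made up 86 of 144 monocytes of RTT_ROSA26 and 138 of 522 of RTT, and the part of this makeup was not tested.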

How the results depend on the processing

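No paired analysis was possible because there was only 1 sample in a group, so no replicate could be left out either. Against the settings used in the report, 235 recomputed summary values stayed close and 25 moved. Of the values of single members, 1453 stayed close, 560 moved and 7 changed sign after a call. TMM shifted all log2 ratios by 0.15 (NTT against RTT) and 0.17 (knockout contrast) over all cells and by 0.12 in Macro of the latter. With TMM the members past 2-fold went from 0 to 1 in TAM_C1q of the knockout contrast (Mgl2), as in load 3 alone (Chil3). For RTT_ROSA26 against RTT over all cells the count of 1 became 0 with TMM, CPM + 1 ratios, a minimum of 50 CPM or load 2 alone, and 3 with no minimum, means over cells or thinning. In its monocytes 2 became 1 with a minimum of 50 CPM, the stricter filter or reassigned cells, and in its TAM_C1q 0 became 1 in load 3. For NTT against RTT in monocytes 5 became 2 with a minimum of 50 CPM and 3 with reassigned cells or load 3. For the knockout contrast in monocytes 4 became 1 with a minimum of 50 CPM. Members higher in monocytes than in TAM_C1q became 1 at that minimum in RTT, RTT_ROSA26 and RTT_PTGS12KO, and in the last 4 with no minimum and 1 in load 3. The median likeness was 0.36 with CPM + 10 and 0.40 over monocyte and macrophage groups. With at least 2 UMIs, 0% of Folr2-positive Macro cells of RTT_ROSA26 held Ear2.

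Signs turned for Retnla over all cells of the knockout contrast (-0.27 with means over cells, -0.21 thinned), for Folr2 in monocytes with reassigned cells (0.16 in NTT against RTT, 0.37 in the knockout contrast), for Ear2 in Macro of NTT against RTT with reassigned cells (-0.34) and for Chil3 in Macro against TAM_C1q of RTT (-0.57 in load 1, -0.017 in load 2). Chil3 in Macro of NTT against RTT, not called at 0.34, came to -0.30 with means over cells, -1.09 thinned and -2.54 without the top cell. The causes were not tested. Reassignment kept the type of 81.5% of cells and of 82.4% of Macro cells. The Macro values of NTT were not computed by load or without the cells with most UMIs, since under 20 cells remained. The 21 Macro cells of NTT and the 144 monocytes of RTT_ROSA26 limit what can be read there.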
